A study of Mus musculus with 6 samples.

Results

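Ccl6, Ccl9 and Ccr1 encode a pair of chemokine ligands and the receptor that binds them, and they are 3 of the 23946 genes listed with expression values for mouse macrophages sorted from abdominal fat. The genes were taken by name, but not blind to these data, since the study had already singled out Ccl6 from the same values. All 3 were among the 13064 genes that reached 1 FPKM in at least 1 library, here called expressed. FPKM counts the fragments mapped to a transcript, scaled for its length and for the number of fragments sequenced. The cells were CD45+CD11b+F4/80+ macrophages of female C57BL/6 mice, from the omentum (OM), a fat apron of the peritoneal cavity that ovarian cancer often colonizes, or from mesenteric adipose tissue (MY). Mice were naive (0 h) or had received ID8 cells, an ovarian carcinoma line of the same strain, in the peritoneal cavity 24 h or 7 d before. Each of the 6 conditions is 1 labelled sample and 1 column of values, here called a library, made from the pooled tissue of several mice. The study's description can also be read as several pooled groups for a condition, and whether a column combines more than 1 of them is not given in the sources used here. No spread between samples of a condition can be had either way, so no difference below has a replicate check, and no p-value is given. The comparisons share libraries with one another and are set side by side as descriptions of these libraries.

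Chemokines are small secreted proteins that draw leukocytes, and some tumor cells, along a gradient by binding G protein-coupled receptors. CCL6 and CCL9 are CC chemokines of rodents, made largely by myeloid cells, and their N-terminal region is longer than that of most CC chemokines. Trimming of that region by proteases increases their activity on CCR1, a receptor of monocytes, macrophages and neutrophils that also binds CCL3, CCL5 and CCL7. CCR1 signals through inhibitory G proteins to phosphoinositide 3-kinase and the MAP kinases.

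In the GENCODE M1 annotation of NCBIM37, the mouse assembly also called mm9 and the build of the deposited values, Ccl9 (chr11:83386421-83392138) and Ccl6 (chr11:83401384-83406589) lie on the minus strand with 9245 bases between them. Ccr1 (chr9:123876959-123883525) is on the minus strand of another chromosome and has 2 exons, of which the second holds the whole coding sequence. Ccl6 and Ccl9 each have 4 exons, whereas Ccl3, Ccl4, Ccl5 and Ccl7, the other CCR1 ligand genes examined, have 3. The additional coding exon, exon 2, is shown because it sets the pair apart from the other ligand genes. It spans 48 bases in Ccl6 (chr11:83403259-83403306) and 72 bases in Ccl9 (chr11:83389877-83389948), both read 5′ to 3′ on the strand of the gene.
Ccl6 exon 2: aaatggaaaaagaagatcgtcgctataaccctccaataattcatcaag
Ccl9 exon 2: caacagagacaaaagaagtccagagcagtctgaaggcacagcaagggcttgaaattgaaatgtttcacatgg
Both lengths are whole numbers of codons, 16 and 24. Aligned over their coding sequences, Ccl6 and Ccl9 were identical at 239 of 375 positions (63.7%), while Ccl6 was identical to the 4 other ligands at 44.7% to 49.0% and Ccl9 at 43.0% to 44.9%. No stretch of 75 bases of the Ccl6, Ccl9 or Ccr1 transcript (of 1366, 2932 and 2757 such windows) was found in a transcript of another gene. One annotated gene, E230016K23Rik, runs across Ccl6 on the opposite strand. No exon of it overlaps an exon of Ccl6 (0 bases), and it was listed at 0.083 to 4.60 FPKM, but whether the libraries kept the strand is not given in the sources used here.

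**Figure D1:**
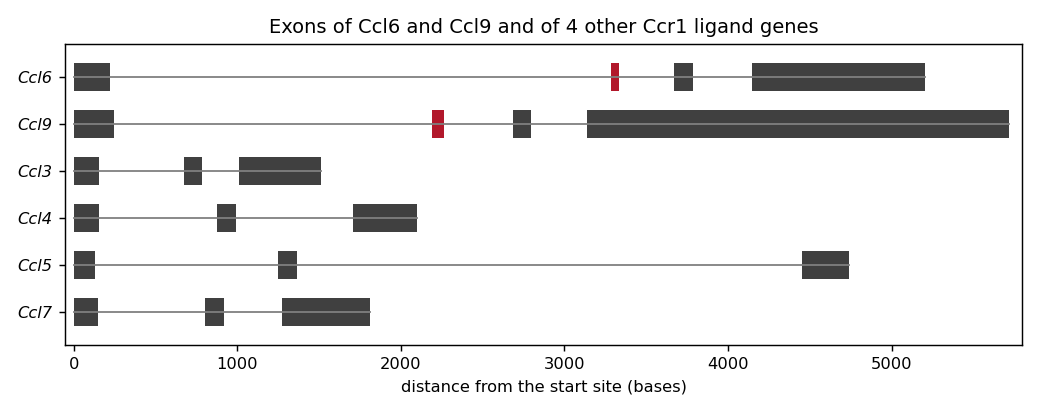
Exons (boxes) of Ccl6, Ccl9 and 4 other CCR1 ligand genes, drawn to scale against the distance in bases from each start site. Ccl6 and Ccl9 have 4 exons, with exon 2 of 48 and 72 bases in red, and the other genes have 3.

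The promoters of the 3 genes are shown because the genes moved together across the libraries. They are the 250 bases before the start site in RefSeq, taken from the GRCm38.p6 promoter table and found by exact match on NCBIM37 at chr11:83406590-83406839 for Ccl6, chr11:83392139-83392388 for Ccl9 and chr9:123883526-123883775 for Ccr1. All are written 5′ to 3′ on the minus strand, and capitals mark matches on either strand to the motifs listed after them.
Ccl6 promoter: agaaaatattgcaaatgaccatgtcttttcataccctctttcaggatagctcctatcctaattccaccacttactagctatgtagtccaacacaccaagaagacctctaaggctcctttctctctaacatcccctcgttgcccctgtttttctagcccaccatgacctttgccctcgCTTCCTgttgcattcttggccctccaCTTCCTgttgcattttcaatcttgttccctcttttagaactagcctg
Ccl9 promoter: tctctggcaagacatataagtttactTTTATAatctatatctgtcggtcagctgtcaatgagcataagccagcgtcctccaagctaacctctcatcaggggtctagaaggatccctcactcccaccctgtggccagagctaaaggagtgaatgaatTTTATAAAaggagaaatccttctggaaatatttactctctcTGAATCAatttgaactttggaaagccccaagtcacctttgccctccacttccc
Ccr1 promoter: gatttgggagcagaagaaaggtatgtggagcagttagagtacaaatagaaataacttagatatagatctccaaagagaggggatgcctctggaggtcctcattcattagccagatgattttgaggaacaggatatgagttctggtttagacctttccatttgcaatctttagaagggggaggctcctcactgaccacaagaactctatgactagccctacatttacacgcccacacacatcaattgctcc
All motifs were searched on both strands. TATAAA, the TATA box, matched Ccl9 at 3 places, of which one lies 224 to 219 bases before the start, and the other two overlap each other (94 to 89 and 92 to 87 bases before). The AP-1 motif TGANTCA matched Ccl9 once, 53 to 47 bases before the start. AGGAAG, a core of PU.1 and other ETS factors, matched Ccl6 at 2 places, 73 to 68 and 47 to 42 bases before the start. The C/EBP motif TTGCNNAA and the STAT motif (TTC, any 4 bases, GAA) matched none of the 3 promoters, and Ccr1 had no match to any motif. Over 32851 RefSeq promoters of the same length, TATAAA was found in 12.4%, AGGAAG in 29.5%, TTGCNNAA in 9.56%, TGANTCA in 6.75% and the STAT motif in 5.85%. The best local alignment between the Ccl6 and Ccl9 windows, which include the first 50 transcribed bases, paired 67 bases, of which 59 were identical (88.1%). It ran from 59 bases before the start to transcribed base 15 in Ccl6. In Ccl9 it ran from 18 bases before the start to transcribed base 49, so the start sites were not paired with each other. The score of this alignment, 43, was above the best scores of Ccl6 with Ccr1 (14) and of Ccl9 with Ccr1 (15.5). The motifs and alignments were chosen after the sequences had been seen and describe letters, not binding.

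The study's methods give only a range of read numbers over all samples, so the depth of each library is unknown. The commonest ratio between low values (below 0.1 FPKM in both libraries) of a library and of the naive mesenteric library gave a rough depth. It placed the libraries at about 0.853 to 1.48 times the depth of the naive mesenteric library. The FPKM of all genes summed to 526887 to 713863, with the largest sum in the omentum at 24 h. All 8 macrophage marker genes examined were at 1 FPKM or more in every library, as were all 3 sort markers. Markers of other cells were present as well. Summed B cell markers (5 genes) lay between 524 and 3967 FPKM, and 9 neutrophil markers between 230 and 19809. In bulk samples such as these, fewer cells of a type and less RNA per cell cannot be told apart.

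Ccl6 was the most abundant of the 3 genes in every library. Its FPKM in the omentum was 777 in the naive library, 1901 at 24 h and 489 at 7 d, and in the mesentery 34.3, 282 and 81.7. It was thus highest at 24 h in both tissues, and its lowest omental value was above its highest mesenteric value. Among expressed genes it stood in place 35 from the top in the omentum at 24 h and in place 2801 in the naive mesentery.

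Ccl9 followed the same order of libraries at lower levels. Its FPKM was 147, 296 and 96.0 in the omentum at 0 h, 24 h and 7 d, against 6.29, 33.6 and 8.38 in the mesentery. The naive and 7 d mesenteric values, 1.33-fold apart, were the closest neighbors in its order.

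Ccr1, the receptor gene, had 65.7, 128 and 48.2 FPKM in the omentum and 2.81, 8.58 and 5.40 in the mesentery. In the naive mesentery it was near the low end of the expressed genes, with 27.1% of them at or below it, whereas 88.2% were at or below it in the naive omentum. Ordered from high to low, all 3 genes gave one sequence of libraries: omentum at 24 h, 0 h and 7 d, then mesentery at 24 h, 7 d and 0 h. With 1 column for each condition, no spread is known against which neighbors in that order could be told apart.

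**Figure D2:**
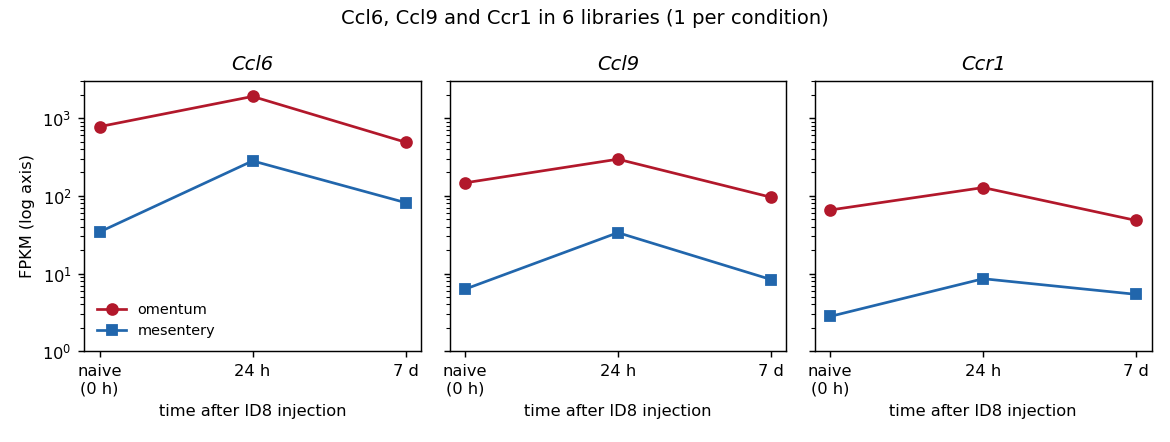
FPKM on a log axis for Ccl6, Ccl9 and Ccr1 at 0 h (naive), 24 h and 7 d after ID8 injection, 1 point per library, with omental libraries as red circles and mesenteric libraries as blue squares. Each gene was highest at 24 h in its tissue, and every omental point lies above every mesenteric point of that gene.

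The comparison of naive tissues asked whether resident omental macrophages differ from those of other fat before tumor cells arrive. The 3 genes differed by nearly the same ratio, with FPKM in the omentum 22.7-fold (Ccl6), 23.4-fold (Ccl9) and 23.4-fold (Ccr1) that in the mesentery. On the log2(FPKM + 1) scale, which lowers the difference for genes of low level, the differences were 4.46, 4.34 and 4.13, against a median of 0.01 over all expressed genes. All 3 were at least 2-fold higher in the naive omentum, as were 8.18% of expressed genes. Only 0.337% or less of expressed genes differed as far or further in that direction. The study had singled out Ccl6 among chemokines in this same comparison, so its place here was known beforehand.

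After injection the tissues stood closer together. At 24 h the omental to mesenteric ratio of FPKM was 6.75 for Ccl6, 8.81 for Ccl9 and 14.9 for Ccr1, and at 7 d it was 5.99, 11.5 and 8.92. The 3 genes were at least 2-fold higher in the omentum at both times, beside 13.9% of expressed genes at 24 h and 14.1% at 7 d. Ccl6, which had the highest level, had the smallest ratio at both times, and relative to the macrophage genes its log2 difference between tissues at 24 h was 0.79, under 2-fold.

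No omental library overlapped the mesenteric ones for any of the 3 genes, a pattern shared by 16.7% of expressed genes. The lowest omental FPKM was 1.74-fold the highest mesenteric FPKM for Ccl6, 2.86-fold for Ccl9 and 5.61-fold for Ccr1. With at least 2-fold required, Ccl9 and Ccr1 kept the pattern, as did 2.73% of expressed genes. The mesenteric library at 24 h set the highest mesenteric value of each gene, and without it these ratios were 5.99, 11.5 and 8.92.

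At 24 h after injection, Ccl6 in the omentum was 2.45-fold its naive level, a log2 difference of 1.29, Ccl9 was 2.02-fold (1.01) and Ccr1 was 1.94-fold (0.95). Ccl6 and Ccl9 passed 2-fold and Ccr1 did not, beside 11.9% of expressed genes that were at least 2-fold higher. The call for Ccl9 was lost under 3 of 5 alternatives (a pseudocount of 5 and 2 of 3 scalings), with log2 differences of 0.81 to 0.99. In the mesentery the differences were larger, at 8.22-fold for Ccl6 (log2 difference 3.00), 5.35-fold for Ccl9 (2.25) and 3.06-fold for Ccr1 (1.33). All 3 passed 2-fold there, beside 2.80% of expressed genes, although with a pseudocount of 5 the log2 difference of Ccr1 was 0.80. The log2 difference in the mesentery exceeded that in the omentum by 1.71 for Ccl6, 1.24 for Ccl9 and 0.38 for Ccr1, which could not be tested.

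By 7 d all 3 genes were below their 24 h level in both tissues. In the omentum all 3 were at least 2-fold below their 24 h level, beside 4.52% of expressed genes, with log2 differences of -1.96 for Ccl6, -1.62 for Ccl9 and -1.39 for Ccr1. In the mesentery Ccl6 (-1.77) and Ccl9 (-1.88) were at least 2-fold below 24 h and Ccr1 (-0.58) was not, beside 3.54% of expressed genes.

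Against the naive libraries, the 7 d values had opposite signs in the tissues. In the omentum the log2 differences were -0.67 for Ccl6, -0.61 for Ccl9 and -0.44 for Ccr1, none of them 2-fold, and 1.96% of expressed genes were at least 2-fold lower. In the mesentery they were 1.23, 0.36 and 0.75, and Ccl6 alone of the 3 passed 2-fold, beside 0.498% of expressed genes. The combination of a value below naive in the omentum and above naive in the mesentery at 7 d was found in 25.5% of expressed genes. A maximum at 24 h in both tissues, which all 3 genes had, was found in 17.5%. The tissue order, the maximum at 24 h and the opposite signs at 7 d together were found in 107 genes, 0.819% of those expressed. This combination was defined from the values of Ccl6, Ccl9 and Ccr1 themselves. Their place among the 107 was thus fixed in advance, and the share is no measure of rarity.

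**Figure D3:**
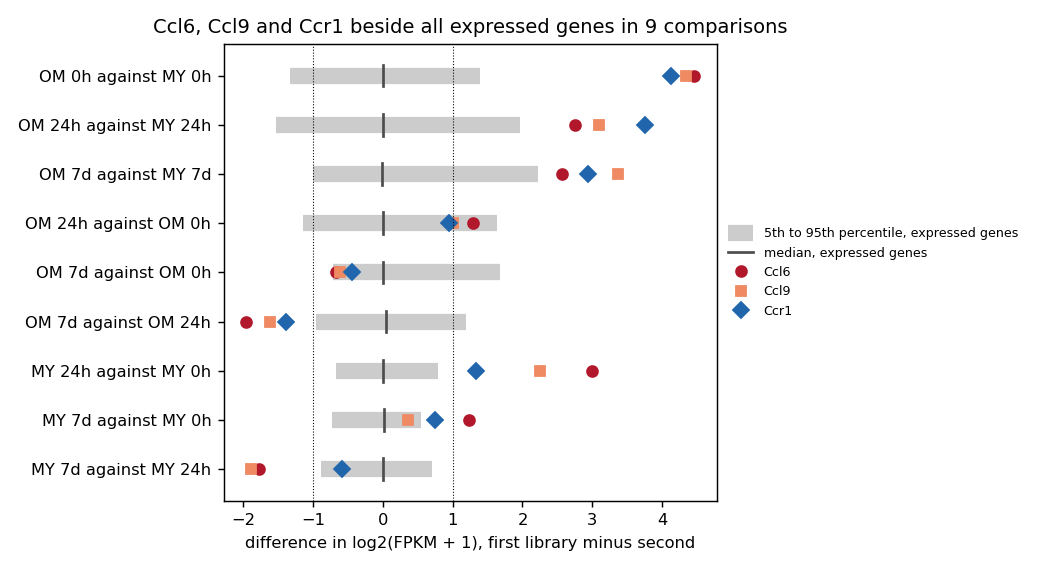
Differences in log2(FPKM + 1) for Ccl6, Ccl9 and Ccr1 in 9 comparisons of 2 libraries, with the 5th to 95th percentile of all 13064 expressed genes as grey bars, their median as a dark line and 2-fold as dotted lines. The 3 genes lie above the grey bar in each omental against mesenteric comparison and in the mesentery at 24 h against 0 h, and within it in the omentum at 24 h and at 7 d against 0 h.

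Each level was also divided by that of the sort markers in the same library, Ptprc (CD45), Itgam (CD11b) and Emr1 (F4/80, now Adgre1), and by the geometric mean of the 8 macrophage genes. The naive difference between tissues stayed large on each of the 4 scales. The log2 differences of the ratio lay between 3.02 and 4.55 for Ccl6, 3.06 and 4.59 for Ccl9, and 3.07 and 4.60 for Ccr1. No scale used the monocyte or neutrophil markers described below, which were also higher in the naive omentum. There 5 of 6 monocyte markers (median log2 difference 2.24) and 7 of 9 neutrophil markers (2.79) were at least 2-fold higher, and none was lower. At 24 h and 7 d the omental ratios were also above the mesenteric ones on every scale, but by less at 24 h than in the naive libraries. Relative to the macrophage genes, the log2 difference between tissues at 24 h was 0.79 for Ccl6, under 2-fold, 1.17 for Ccl9 and 1.93 for Ccr1, and relative to Itgam it was 1.22, 1.60 and 2.36. The comparison of the omentum at 24 h with 0 h did not keep its sign. Relative to Ptprc the 3 genes were higher at 24 h (2.07 for Ccl6, 1.80 for Ccl9 and 1.74 for Ccr1), and relative to Itgam slightly so (0.56, 0.29 and 0.23). Relative to Emr1 they were lower (-1.01, -1.29 and -1.34), and likewise relative to the macrophage genes (-1.07, -1.35 and -1.41).

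In the mesentery at 24 h, Ccl6 and Ccl9 were above the naive library on all 4 scales, with lowest log2 differences of 1.30 and 0.68 relative to Emr1. Ccr1 was above it on 3 scales and at -0.13 relative to Emr1. The 7 d values of the omental genes relative to Itgam were close to the naive ones, at -0.03 for Ccl6, 0.02 for Ccl9 and 0.19 for Ccr1. Ccl6 was below naive on all 4 scales (-0.03 to -0.62), whereas Ccl9 was above it relative to Itgam, and Ccr1 relative to Itgam and to Ptprc (0.10). In the mesentery at 7 d, Ccl6 relative to the 4 references was 0.38 to 1.48 above naive, while Ccl9 was at -0.46 relative to Emr1 and Ccr1 at 0.07.

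**Figure D4:**
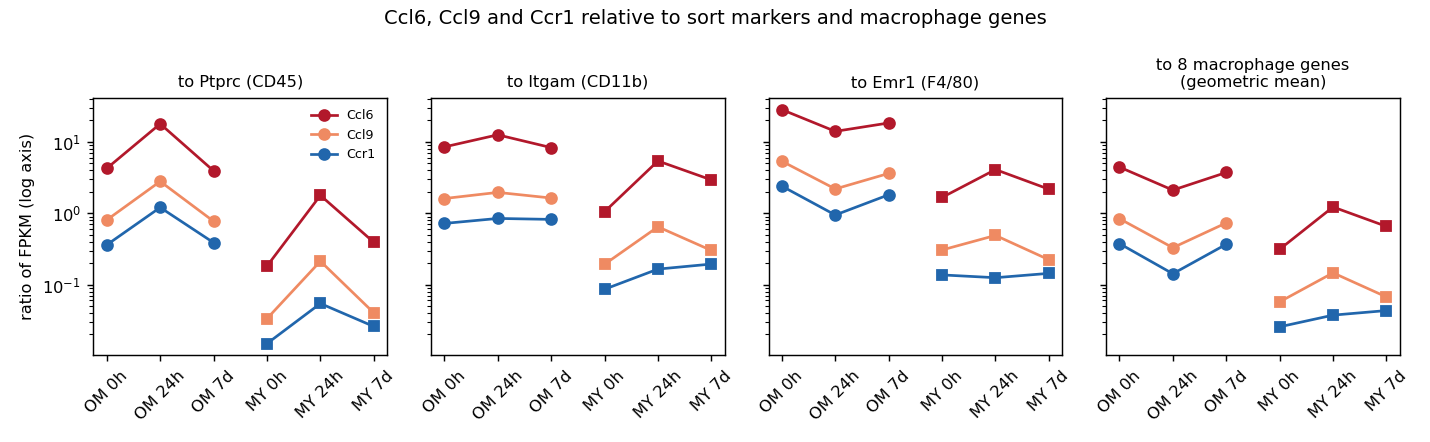
FPKM of Ccl6, Ccl9 and Ccr1 divided by that of Ptprc, Itgam, Emr1 or the geometric mean of 8 macrophage genes in the same library, on a log axis, with circles for omental and squares for mesenteric libraries. The omental points lie above the mesenteric points of the same gene and time in every panel, and the omental value at 24 h is a peak relative to Ptprc and a dip relative to Emr1 and the macrophage genes.

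Markers of cell types moved along with these comparisons. The 8 macrophage genes summed to 9147 FPKM in the naive omentum, 37482 at 24 h and 7990 at 7 d, and to 4264, 6823 and 4076 in the mesentery. Lyz2 alone gave 7054, 24780 and 6791 FPKM of the omental sums and 2968, 3578 and 2571 of the mesenteric ones. Between tissues, 2, 6 and 2 of the 8 genes were at least 2-fold higher in the omentum at 0 h, 24 h and 7 d, and none was lower. Their median log2 differences between tissues were 0.69, 2.05 and -0.14. All 8 were at least 2-fold higher in the omentum at 24 h than at 0 h, and 5 of 8 in the mesentery. Over all expressed genes, 11.9% were higher and 6.45% lower in the omentum at 24 h against 0 h, and 2.80% and 1.52% in the mesentery. The 9 neutrophil markers in the table summed to 7490, 17821 and 19809 FPKM in the omentum and to 890, 739 and 230 in the mesentery, and all 9 were at least 2-fold higher in the omentum at 24 h than at 0 h. In the mesentery at 24 h against 0 h, 2 of the 9 were at least 2-fold higher, Retnlg (40.5 and 263 FPKM) and Csf3r (5.99 and 13.4), and 3 were lower.

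The 6 monocyte markers, which include Ccr2, F13a1 and Fn1, summed to 1677 to 2195 FPKM in the omentum and 389 to 464 in the mesentery. At 24 h against 0 h, 4 of the 6 were at least 2-fold higher and 1 was lower in the omentum, and 2 were higher and none lower in the mesentery, F13a1 (4.43 and 12.998 FPKM) and Fn1 (1.87 and 21.4). The B cell sum in the omentum was 3967, 904 and 2447 at 0 h, 24 h and 7 d, lowest where the 3 genes were highest, and it was 796, 524 and 1539 in the mesentery. Fibroblast markers (6 genes) summed to 221 to 1190 FPKM in the omentum and at most 3.10 in the mesentery, and mesothelial markers (6 genes) to 82.8 to 852 against at most 0.72. The 6 dendritic cell markers summed to 126 to 315 FPKM in the omentum and 94.0 to 138 in the mesentery. Most of the omental sum was Cd209a, with 264, 104 and 82.0 FPKM against 11.8, 15.3 and 13.2 in the mesentery. The median log2 difference of the 6 between tissues was 0.13 at 0 h, -0.90 at 24 h and -0.80 at 7 d. At 24 h, 1 of them was at least 2-fold higher in the omentum and 3 were lower. The 6 eosinophil markers summed to 9.76 to 36.0 FPKM over the 6 libraries, with Epx listed at 0 in 5 of them. Of the 5 expressed ones, 1 was at least 2-fold higher and 1 lower in the omentum at 24 h than at 0 h. In the mesentery 2 of these 5 were higher and none lower. The 6 mast cell markers summed to 4.36 to 70.9 FPKM, lowest in the omentum at 24 h. The part of these cells in the levels of Ccl6, Ccl9 and Ccr1 was not tested.

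The ligands were then set beside the other chemokines. Ccl6 made up 39.1%, 36.4% and 27.1% of the summed FPKM of 41 chemokine ligand genes in the omentum at 0 h, 24 h and 7 d, and 1.30%, 9.96% and 5.38% in the mesentery. Ccl9 made up 7.40%, 5.67% and 5.31% in the omentum and 0.238%, 1.19% and 0.552% in the mesentery. Ccl6 held place 1 among the ligands in all 3 omental libraries and places 7, 3 and 4 in the mesenteric ones.

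The ratio of Ccl6 to Ccl9 FPKM was 5.29, 6.42 and 5.09 in the omentum. In the mesentery it was 5.45, 8.38 and 9.75, so that Ccl6 was higher relative to Ccl9 after injection there. In the naive libraries the ratio was nearly the same in the tissues.

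Ccl5, a T cell and NK cell chemokine that also binds CCR1, stood opposite to the pair. It had 345, 135 and 256 FPKM in the omentum and 1969, 1696 and 928 in the mesentery, where it made up 60.0% to 74.5% of chemokine ligand FPKM. Markers of NK cells (6 genes) summed to 273, 18.7 and 134 FPKM in the omentum and 1670, 1021 and 703 in the mesentery. The 5 T cell markers in the table summed to 93.3, 17.3 and 92.9 against 638, 339 and 776, and their part in the level of Ccl5 was not tested. Of the summed FPKM of 6 CCR1 ligand genes (Ccl3, Ccl4, Ccl5, Ccl6, Ccl7 and Ccl9), Ccl6 and Ccl9 together held 65.3%, 82.7% and 57.9% in the omentum and 1.92%, 15.2% and 8.64% in the mesentery.

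**Figure D5:**
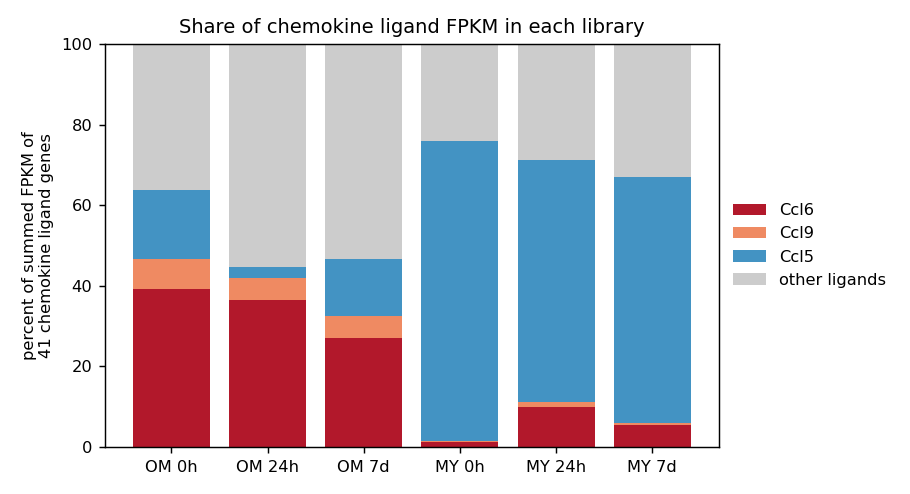
Percent of the summed FPKM of 41 chemokine ligand genes taken by Ccl6, Ccl9, Ccl5 and all other ligands in each library, as stacked bars from 0 to 100. Ccl6 takes 27.1% to 39.1% of each omental bar, and Ccl5 takes 60.0% to 74.5% of each mesenteric bar.

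The other CCR1 ligand genes shared the pattern of Ccl6 and Ccl9 in part. Of Ccl3, Ccl4, Ccl5 and Ccl7, 1 was at least 2-fold higher in the naive omentum than in the naive mesentery (Ccl7) and 1 was lower (Ccl5). Between the naive tissues, 8.18% of expressed genes were higher and 8.05% lower. In the omentum at 24 h against 0 h, Ccl3 and Ccl7 were higher and Ccl5 was lower, and in the mesentery none of the 4 differed 2-fold on the log2(FPKM + 1) scale. Between tissues after injection, 3 of the 4 were at least 2-fold higher in the omentum at 24 h and at 7 d, and Ccl5 was lower. Ccl3, Ccl4 and Ccl7 each had every omental value above every mesenteric value and an omental maximum at 24 h, but none had a mesenteric maximum at 24 h. Ccl7, a monocyte attractant, had 23.7, 125 and 26.4 FPKM in the omentum. In the mesentery it was at 0.93, 0.24 and 0.24 and lacked the maximum at 24 h. Ccl3, a macrophage inflammatory protein, had 34.3, 74.4 and 47.0 FPKM in the omentum and 21.7, 14.7 and 7.96 in the mesentery, and its relative Ccl4 had 89.2, 124 and 96.4 against 77.9, 53.4 and 16.4.

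Among receptors of inflammatory CC chemokines, Ccr2, the monocyte receptor for CCL2, had 137, 303 and 112 FPKM in the omentum and 36.6, 42.6 and 27.2 in the mesentery. Ccr2 was thus also highest at 24 h in both tissues, with a smaller tissue difference than Ccr1.

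Of 7 expressed receptor genes examined beside Ccr1, 2 were at least 2-fold higher in the naive omentum than in the naive mesentery and 2 were lower. The shares over all expressed genes were 8.18% and 8.05%. At 24 h against 0 h, 3 of the 7 were higher and 1 lower in the omentum, beside 11.9% and 6.45% of expressed genes. In the mesentery 1 was higher, beside 2.80%, the eosinophil receptor gene Ccr3 (0.37 and 10.4 FPKM). Ccrl2, which binds chemerin and presents it to cells, was among those higher in both omental comparisons, with 34.1, 124 and 51.7 FPKM in the omentum and 5.90, 8.14 and 7.58 in the mesentery. The fractalkine receptor gene Cx3cr1 had 15.6, 144 and 19.9 against 12.2, 20.2 and 17.0. Cxcr6 and Ccr9, receptors of lymphocytes, were lower in the naive omentum, at 11.9 against 35.0 FPKM for Cxcr6 and 3.19 against 11.1 for Ccr9. Of 4 atypical receptor genes, 2 were at least 2-fold higher in the naive omentum (Ackr2 and Ackr3), 1 was higher (Ackr4) and 1 lower (Ackr2) in the omentum at 24 h, and none differed 2-fold in the mesentery at 24 h. Of these, Ackr2, whose product takes up and degrades inflammatory CC chemokines, had 14.4, 1.63 and 5.80 FPKM in the omentum and at most 0.85 in the mesentery, lowest in the omentum where the ligands were highest.

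Proteases that can trim chemokine N termini were examined because trimming activates CCL6 and CCL9. Of 10 such genes, 6 were at least 2-fold higher in the naive omentum and none was lower, while in the omentum at 24 h against 0 h 4 were higher and 4 lower, and in the mesentery 2 were higher and 1 lower. Over all expressed genes the shares were 8.18% higher and 8.05% lower between the naive tissues, 11.9% and 6.45% in the omentum at 24 h, and 2.80% and 1.52% in the mesentery at 24 h. The median log2 difference of the 10 genes was 1.91, 0.08 and 0.26 in these comparisons, against 0.01, 0 and 0.00 over all expressed genes. Neutrophil elastase, Elane, had 118, 39.4 and 235 FPKM in the omentum and at most 1.41 in the mesentery, and cathepsin G, Ctsg, had 11.6, 1.41 and 34.4 against at most 0.056. Both were lowest in the omentum at 24 h, and Prtn3, another neutrophil serine protease, had 35.5, 29.1 and 105 FPKM there. The macrophage cathepsins had the opposite time course, with 892, 2330 and 694 FPKM for Ctss and 229.8, 983 and 201 for Ctsb in the omentum. The metalloproteinase gene Mmp9 had 64.8, 168 and 64.1 FPKM in the omentum and 10.1, 22.1 and 12.7 in the mesentery, and was at least 2-fold higher at 24 h in both tissues. Mmp8, a neutrophil collagenase, had 38.4, 79.4 and 35.4 against 3.57, 3.76 and 1.76. The mast cell chymase gene Cma1 had 24.6, 0.084 and 21.6 FPKM in the omentum, and the dipeptidyl peptidase gene Dpp4 had 28.0, 10.6 and 23.1.

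Of 18 signalling genes downstream of the receptor (G protein subunits, phospholipases, kinases, arrestins and regulators), none was at least 2-fold higher in the naive omentum and 2 were lower, Arrb2 (49.9 against 120 FPKM) and Rgs1 (32.9 against 68.9). In the omentum at 24 h, Arrb2, an arrestin that turns receptors off, was at 131 FPKM and Grk6, a receptor kinase, at 82.4 against 193 in the naive library, and in the mesentery none of the 18 differed 2-fold. Their median log2 difference was 0.17 between the naive tissues, -0.26 in the omentum at 24 h and -0.07 in the mesentery at 24 h, and most expressed genes also did not differ 2-fold in these comparisons. Of 11 cytokine receptor and STAT genes through which IL-4, IL-10, IL-13 or GM-CSF act on macrophages, none differed 2-fold between the naive libraries. Il13ra1 (16.2 and 37.2 FPKM) and Csf2ra (141 and 321) were at least 2-fold higher in the omentum at 24 h than at 0 h, and Il13ra1 alone of the 11 was so in the mesentery (11.4 and 27.6).

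Of 8 expressed genes around Ccl6 and Ccl9 on the chromosome, 2 were at least 2-fold higher in the naive omentum (Wfdc17 and Wfdc18) and 1 was lower (Ccl5). The shares over all expressed genes were 8.18% and 8.05%. Wfdc18 had the pair's order of libraries at low levels, with 1.93, 3.24 and 1.27 FPKM in the omentum and 0, 0.54 and 0.21 in the mesentery. Wfdc17, which encodes a small secreted protein of myeloid cells, had the same order at higher levels. It had 455, 1402 and 298 FPKM in the omentum and 44.9, 180.1 and 52.5 in the mesentery. Its Pearson r over the 6 libraries on log2(FPKM + 1) was 0.984 with Ccl6 and 0.986 with Ccl9. Ap2b1, an adaptor of clathrin coats, did not have this order, with 31.8, 14.6 and 12.3 FPKM in the omentum.

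Across the 6 libraries, the 3 genes had profiles much like one another. Pearson r on log2(FPKM + 1) was 0.985 between Ccl6 and Ccl9, 0.981 between Ccl9 and Ccr1, and 0.959 between Ccl6 and Ccr1. Among 7998 genes with at least 10 FPKM in a library, Ccl9 was in place 8 for likeness to Ccl6 and Ccr1 in place 57. For likeness to Ccl9, Ccl6 was in place 14 and Ccr1 in place 24. For likeness to Ccr1, Ccl9 was in place 32 and Ccl6 in place 103. The points share 2 tissues and 3 times, and 79 genes had an r of at least 0.95 with Ccl6, 100 with Ccl9 and 143 with Ccr1.

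The 5 genes most like Ccl6 were Atp2b1, a plasma membrane calcium pump (r = 0.994), Alox5 (0.993) and Alox5ap (0.988), the lipoxygenase of leukotriene synthesis and its activating protein, fibronectin, Fn1 (0.991), and the IL-10 receptor chain Il10ra (0.990). They differed in size of change, since r compares shape only. Alox5 ran from 1.19 to 41.5 FPKM, and Il10ra from 56.98 to 90.1. For Ccl9 they were Emilin2 (0.999) and Fn1 (0.998) of the extracellular matrix, the lectin Clec10a (0.996), Slamf9 (0.994) and the leukotriene B4 receptor Ltb4r1 (0.990). Fn1, the gene that both lists hold, had 94.2, 279 and 57.6 FPKM in the omentum and 1.87, 21.4 and 2.99 in the mesentery.

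For Ccr1 the nearest genes were Nlrx1 (0.997), a mitochondrial NLR protein, the kinase gene Rps6ka4 (0.997), lipoprotein lipase, Lpl (0.996), coagulation factor F13a1 (0.995) and the ceramidase gene Acer3 (0.994). Lpl had 43.3, 98.5 and 43.5 FPKM in the omentum and 1.05, 4.35 and 1.81 in the mesentery. F13a1, like Fn1 one of the monocyte markers examined, had 64.6, 157 and 48.5 against 4.43, 12.998 and 6.44. Not all monocyte markers were alike. Plac8 had 1060, 386 and 956 FPKM in the omentum and 202, 152 and 258 in the mesentery, lowest at 24 h in both. Ly6c2 had 164, 241 and 391 against 184, 106 and 152. The names of the genes most alike depend on the libraries and on the measure. Leaving out 1 library in turn kept 0 to 3 of the 5 for Ccl6, 2 to 4 for Ccl9 and 0 to 4 for Ccr1, and Euclidean distance in place of r kept 0, 0 and 2.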

How the data were processed

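RNA of sorted CD45+CD11b+F4/80+ cells was sequenced in 6 libraries, 1 column of values per tissue and time. Per the labels and the study's methods, reads were checked with FastQC (0.11.4), aligned to mm9 with STAR (2.4.2a) and summarized by Cufflinks, and the authors deposited 1 table of FPKM values per gene. Here, differences were taken on log2(FPKM + 1) without tests, since each condition has 1 library. Genes at 1 FPKM or more in at least 1 library counted as expressed, and 2-fold as the limit for a call. Named genes were Ccl6, Ccl9 and Ccr1, the 5 genes with the highest Pearson r to each at 10 FPKM or more, and list genes at 10 FPKM or more that differed 2-fold in the naive or the 24 h omental comparison. Ccl4, Ccr3, Ackr3, Ackr4, Wfdc18, Epx, Ly6c2 and E230016K23Rik fall outside this rule and were named after their values were seen. These genes and the lists were chosen with earlier results of these data known. Scripts used Python 3.11.15, pandas 2.3.3, numpy 2.4.6 and Biopython 1.88, and were tested on simulated data. Alternatives were other pseudocounts, scalings, filters and left-out libraries. One listed receptor gene is not reported here.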

Additional observations from a re-analysis of the deposited data

Results flagged for a closer look

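All 3 genes had opposite signs in the tissues at 7 d against the naive library. The log2 difference was -0.67 in the omentum and 1.23 in the mesentery for Ccl6, -0.61 and 0.36 for Ccl9, and -0.44 and 0.75 for Ccr1. The difference between the tissues was not tested, since each condition is 1 library, and the same combination of signs was found in 25.5% of expressed genes.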

How the results depend on the processing

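Of 135 log2 differences of Ccl6, Ccl9 and Ccr1 recomputed under other pseudocounts and scalings, 132 moved by less than 1.5-fold and 0 changed sign. The 3 others came from a pseudocount of 5, which gave 3.75 for Ccl9 and 3.18 for Ccr1 between the naive tissues and 2.35 for Ccr1 between the tissues at 7 d. The 2-fold call of Ccl9 in the omentum at 24 h was lost with a pseudocount of 5 (0.99), a common sum as in TPM (0.81) or upper quartile scaling (0.97), and that of Ccr1 in the mesentery at 24 h with a pseudocount of 5 (0.80). The common sum moved the median of all expressed genes to -0.17 in the omentum at 24 h against 0 h and to 0.36 at 7 d against 24 h. With at least 1 FPKM required in every library, 6.52% of genes were at least 2-fold higher in the omentum at 7 d. Of the 5 genes most like each, Euclidean distance kept 0 for Ccl6, 0 for Ccl9 and 2 for Ccr1, the common sum kept 3 for Ccl6, and leaving out 1 library kept 0 to 3 for Ccl6, 2 to 4 for Ccl9 and 0 to 4 for Ccr1. All 3 genes kept at least 2-fold between the lowest omental and highest mesenteric value without the mesenteric library at 24 h, an alternative chosen after seeing the data. No paired analysis was possible because conditions share only 1 replicate number, and a fit that takes the 3 time points as pairs of tissues was not run, since they are different conditions. The depth of each library is unknown, so counting error could not be given.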
